A study of Drosophila melanogaster with 12 samples.

Results

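The genes of the fourth chromosome of Drosophila melanogaster were described in adult Malpighian tubules, which make urine and keep the salt and water balance of the fly. Members were the genes with the value 4 in the chromosome column of the count tables. The tables hold 13919 genes, of which 79 lie on chromosome 4. RpS3A and ATPsynbeta were left out by name, which leaves 77 members. RNA was sequenced from the tubules of adult females aged 6 days; flies were reared at 20 °C under a cycle of 14 h light and 10 h dark. The genotypes were 3 F1 hybrids, SU58xZI418N, SU26xZI418N and SU26xSU58, and the 3 lines that were crossed, ZI418N from Zambia and SU58 and SU26 from Sweden. Each genotype had 2 libraries that are called biological replicates. Every p-value below rests on a spread between replicates that was estimated from all 12 libraries together. The labels do not say which line was the mother of a hybrid or how many flies a library holds.

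The fourth, or dot, chromosome is the smallest of the fly. It is packed largely as heterochromatin, with HP1a and methylated lysine 9 of histone H3 along much of its length, and it rarely recombines. Its genes are nevertheless transcribed, and the protein Pof, which paints the chromosome, binds it and is known to raise the output of its genes, while the methyltransferase eggless (egg) places much of its histone H3 methylation. The chromosome carries several regulators of development, such as ci, ey, toy, sv and zfh2, and genes of calcium handling and vesicle release.

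The libraries held between 30834175 and 43479929 counts, and the members took 0.798% to 0.905% of them. All 12 tubule markers were detected, with summed levels of 11510 to 18550 counts per 1000000 reads (CPM). The female germ line markers summed to 980 CPM in SU26xZI418N replicate 2 and to 134 to 172 CPM in the other 11 libraries, where BicD alone had 122 to 158 CPM. Other germ line markers were also raised in SU58xZI418N replicate 2. There osk, yl, CycB and dhd had 4.15, 7.43, 11.6 and 8.96 CPM, against 0.254, 0.33, 0.839 and 0.203 CPM in its replicate 1. In SU58 replicate 1 yl and CycB had 3.66 and 5.22 CPM, and in SU26xZI418N replicate 1 3.92 and 4.51 CPM. The eggshell markers summed to 250.1 CPM in SU58 replicate 1, to 25.2 CPM in SU26 replicate 1 and to 0.509 to 7.15 CPM elsewhere. Fat body markers, among them the member apolpp, summed to 177 to 1124 CPM. In these bulk samples, fewer cells of a type and less RNA per cell cannot be told apart.

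Most chromosome 4 genes were expressed in the tubule. A mean of at least 1 CPM over the 12 libraries was reached by 59 of 77 members, or 76.6%, against 56.6% of the genes of the other chromosomes, whose arms ranged from 53% (2L) to 60.4% (X). At 100 CPM or more the shares were 23.4% of the members and 10.6% of the other genes. The members are long, with a median of 3879 bases against 1695 bases for the other genes, and a long gene collects more reads at the same level. Per kilobase, the expressed members had a median of 15.8 CPM per kb and the expressed genes of other chromosomes 9.89 CPM per kb. Every member had at least 1 read in the series, while 1015 of the other genes had none.

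The split between members above and below 1 CPM was the same in every genotype. The 59 members lay above 1 CPM in all 12 libraries and the other 18 lay below it in all 12, whereas 9.83% of the other genes were above 1 CPM in some libraries and below it in others. The lowest value above the gap was 1.21 CPM for Sox102F, and the highest below it was 0.89 CPM for NfI; these genes were picked out after their values were seen. Of the levels tried, only 1 CPM had no member above in some libraries and below in others. The share of such members was 6.49% at 0.5 CPM and 2.6% at 2 CPM, against 10.9% and 9.31% of the other genes. At 5 CPM the shares were 10.4% of the members and 9.99% of the other genes.

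**Figure D1:**
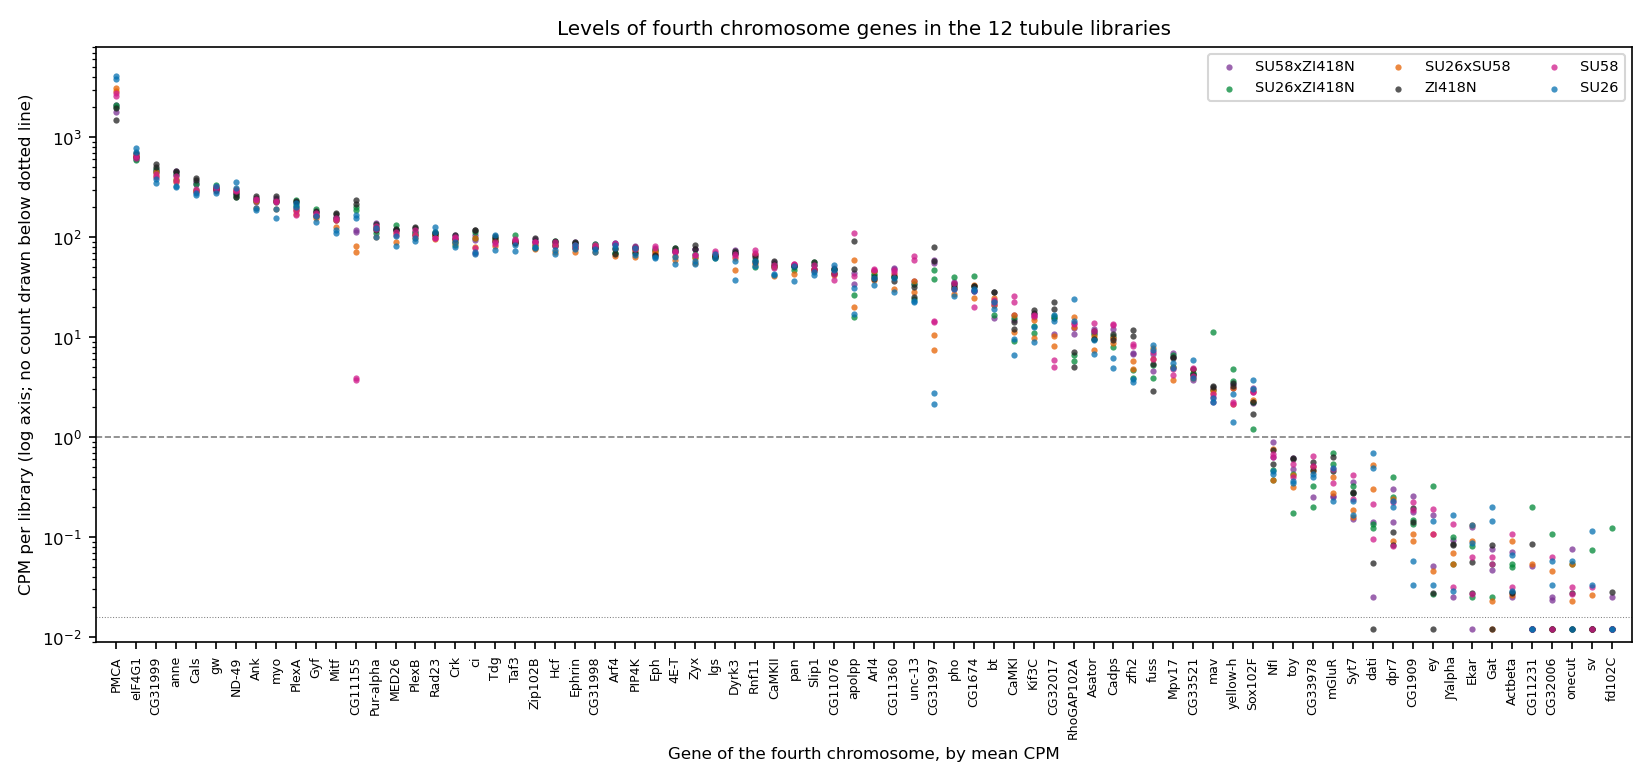
CPM of the chromosome 4 genes reported here (log axis), ordered by mean level, with 1 point per library coloured by genotype; the dashed line marks 1 CPM. No gene has points on both sides of the dashed line, PMCA stands highest, and CG11155 has its SU58 points near 3.8 CPM while its other genotypes lie at 70.7 CPM or more.

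The highest level per length was that of PMCA, the calcium pump of the plasma membrane, at 431 CPM per kb. It was followed by ND-49, a subunit of respiratory complex I, at 182 CPM per kb, CG31999 at 122 CPM per kb and the translation initiation factor eIF4G1 at 104 CPM per kb. The small GTPase Arf4 (83.6 CPM per kb), the adaptor protein Crk (69.3), the predicted cation-transporting ATPase anne (68.8), the TGF-beta family ligand myo (61.4), the proteasome shuttle Rad23 (53) and the calsyntenin Cals (52.2) completed the 10 highest, all in CPM per kb. PMCA alone supplied much of the members' RNA: they summed to 7808 to 9503 CPM per library with it and to 5320 to 6591 CPM without it.

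By role, all 7 members of translation, RNA and DNA upkeep were expressed, with a median level of 44.5 CPM per kb. They include gw, the GW182 protein of microRNA silencing, at 280.0 to 329 CPM over the 12 libraries, and Gyf, a regulator of translation, at 140.4 to 191.7 CPM. Of 8 members of ion and metal transport and metabolism, 7 were expressed (median 34.5 CPM per kb), and of 16 ligands, receptors and signalling proteins 15 were (median 15.4 CPM per kb), the exception being the activin ligand Actbeta. The 4 members of cytoskeleton and muscle were all expressed, although bt, the giant muscle protein projectin, reached only 0.8 CPM per kb.

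Transcription factors and synaptic genes split in their levels. Of 18 transcription factors and chromatin proteins, 11 were expressed, among them the lysosomal and V-ATPase regulator Mitf at 110.5 to 174.9 CPM, MED26 of the Mediator complex and Taf3 of TFIID. The eye and bristle selectors ey, toy and sv and the factors onecut and fd102C stayed below 1 CPM in every library. Of 10 genes of synapse, vesicle release and neurotransmitter receptors, 4 were expressed, CG11155, Cals, unc-13 and Cadps, and the median of the list was 0.107 CPM per kb. The glutamate receptors mGluR and Ekar were among the members under 1 CPM, whereas CG11155, a subunit of the kainate type of glutamate receptor, averaged 25.9 CPM per kb. Of 10 neuron markers outside the chromosome, 6 had a mean of at least 1 CPM, and they summed to 21.5 to 34.1 CPM per library; VGlut had no count in 9 libraries and at most 0.0576 CPM in the rest.

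For differences between lines, 66 of the 77 members passed the filter on low counts, within 9302 genes tested. CG11155, at 4:1126602-1137919 on the plus strand in the Ensembl BDGP6 annotation, differed most. The gene had 3.87 and 3.69 CPM in SU58, 216 and 238 CPM in ZI418N and 165.9 and 154.2 CPM in SU26. The SU58 libraries lay far below all other libraries, where no value was under 70.7 CPM, yet held 144 and 116 reads of the gene. The level was 42.3-fold lower in SU58 than in SU26 (log2 fold change -5.40 ± 0.12 (SE), adjusted p = 5.83e-08, edgeR quasi-likelihood test) and 60.0-fold higher in ZI418N than in SU58 (5.91 ± 0.12, adjusted p = 3.13e-08). ZI418N was also 1.42-fold above SU26 (0.50 ± 0.10, adjusted p = 0.00597).

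CG32017 lies on the other strand next to CG11155, and the annotated ends of both genes overlap by 90 bases. It had 5.08 and 5.88 CPM in SU58, 19.1 and 22.4 CPM in ZI418N and 14.6 and 16.5 CPM in SU26. As for CG11155, both SU58 libraries were the lowest of the 12. The gene was 2.84-fold lower in SU58 than in SU26 (adjusted p = 0.00126) and 3.79-fold higher in ZI418N than in SU58 (adjusted p = 0.00022). Whether the counting used strand is not given in the sources used here, so reads of the shared stretch cannot be assigned to one of the genes.

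CG31997, for which no role is given, showed a graded difference among the lines. ZI418N libraries had 79.5 and 58.2 CPM, SU58 libraries 14.3 and 14.6 CPM, and SU26 libraries 2.78 and 2.13 CPM. No library of one line overlapped another line, which was a condition of naming genes from a pair of lines. ZI418N stood 28.1-fold above SU26 (log2 fold change 4.81 ± 0.25, adjusted p = 5.47e-06) and 4.75-fold above SU58 (adjusted p = 0.000149), and SU58 stood 5.91-fold above SU26 (adjusted p = 0.00018).

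PMCA differed in the opposite order. It had 1480 and 1952 CPM in ZI418N, 2768 and 2571 CPM in SU58, and 3870 and 4092 CPM in SU26. It was 2.32-fold lower in ZI418N than in SU26 (log2 fold change -1.21 ± 0.14, adjusted p = 0.000362), 1.56-fold lower in ZI418N than in SU58 (adjusted p = 0.0118) and 1.49-fold lower in SU58 than in SU26 (adjusted p = 0.0193). The call of ZI418N against SU26 held in all 18 alternative fits. That of ZI418N against SU58 was lost in 4 of them, without either SU58 library or without ZI418N replicate 1, with an adjusted p of up to 0.101. That of SU58 against SU26 was lost when any library of SU58 or SU26 was left out, with an adjusted p of up to 0.134. With PMCA included the members together summed to 7808 and 8543 CPM in ZI418N, against 9503 and 9423 CPM in SU26, while without PMCA the order was turned, at 6328 and 6591 CPM in ZI418N and 5633 and 5331 CPM in SU26. Of the exonic length of PMCA, 40.5% is shared with Rnf11 on the other strand, which had 50.9 to 75.04 CPM in the 12 libraries.

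**Figure D2:**
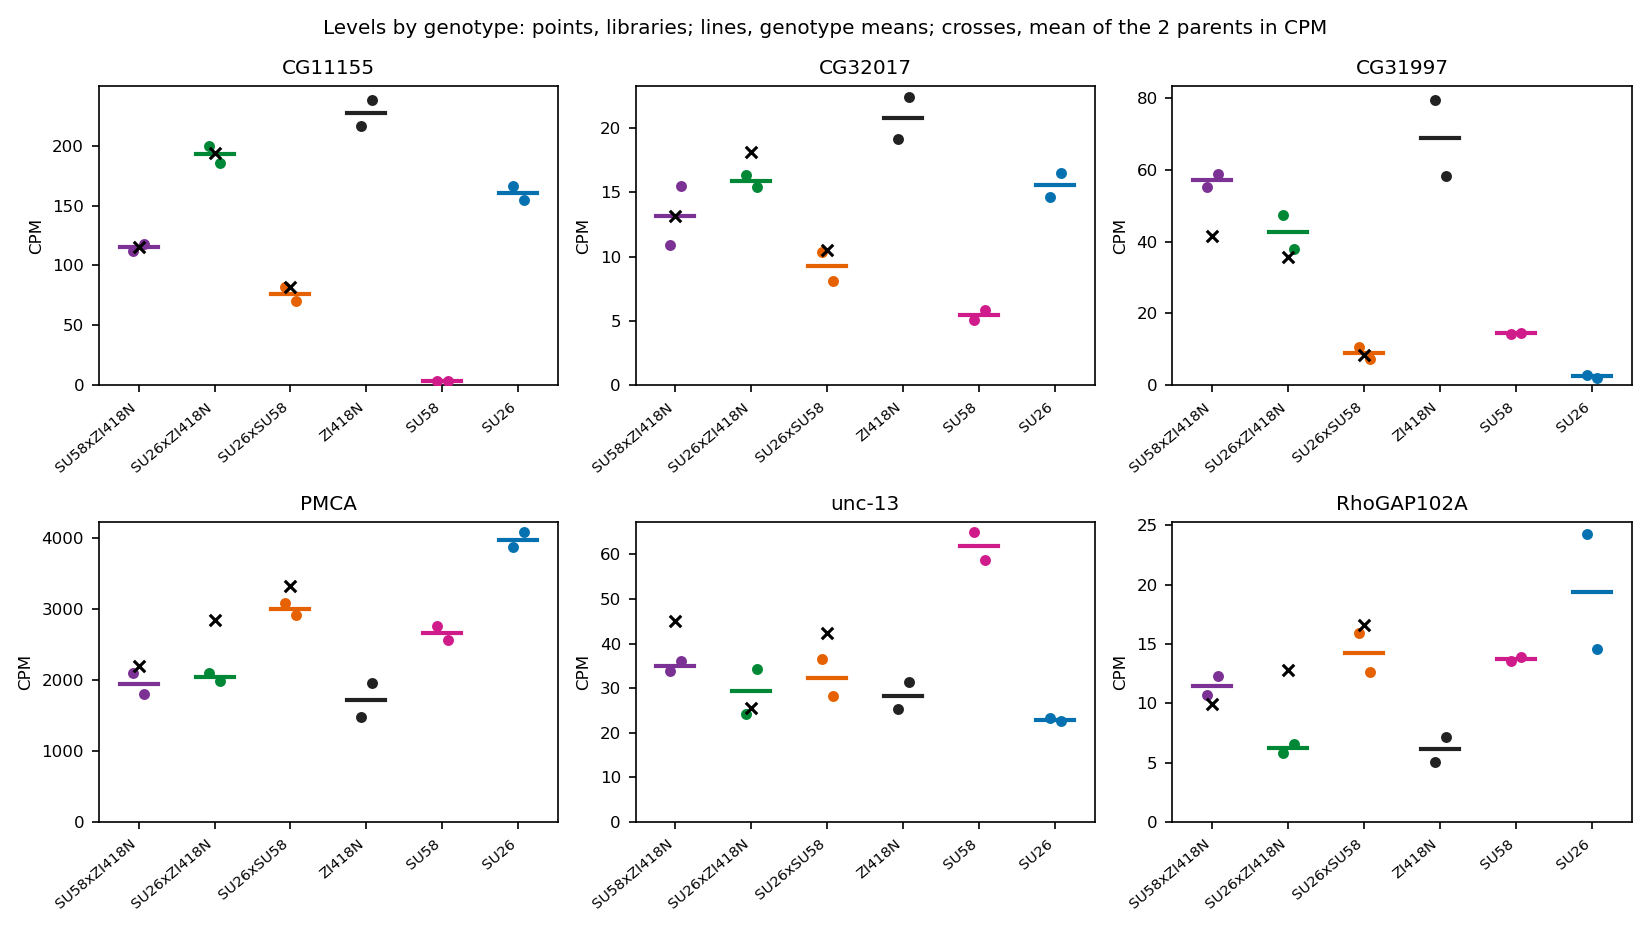
CPM of 6 chromosome 4 genes by genotype, with the hybrids left of the lines: points are libraries, bars genotype means and crosses the mean of both parents of a hybrid in CPM. CG11155 is near 0 in SU58 and its hybrids lie at their crosses, CG31997 and PMCA run in opposite orders over the lines, and RhoGAP102A of SU26xZI418N lies at the level of ZI418N.

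Between SU58 and SU26, 14 of 66 members were called at an adjusted p under 0.05, 11 higher and 3 lower in SU58, or 21.2% of them, against 17.6% of all genes tested. The share is near the background. Fewer members were called with SU26 replicate 2, SU58 replicate 1 or SU58 replicate 2 left out. Calls over all genes in those fits are not given here. Among the higher genes, unc-13, which primes synaptic vesicles, had 65.0 and 58.8 CPM in SU58 and 23.3 and 22.6 CPM in SU26 (2.70-fold, adjusted p = 0.00135). Cadps, needed for dense-core vesicle release, had 13.4 and 13.3 CPM in SU58 and 4.96 and 6.22 CPM in SU26 (2.39-fold, adjusted p = 0.00202). The calmodulin-dependent kinase CaMKI had 25.7 and 22.7 CPM in SU58 and 9.55 and 6.65 CPM in SU26 (2.99-fold, adjusted p = 0.00675). The SU58 libraries lay above the SU26 libraries for each of these genes. That adds no evidence, since separate libraries were a condition of naming genes from a pair of lines. Of all genes tested, 65.7% did not overlap between these lines. The CaMKI call was lost without SU26 replicate 2 and also without SU58 replicate 1.

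Within the list of synapse and vesicle genes, 2 of 8 tested members thus rose in SU58 and CG11155 fell. Of all 9302 genes tested, 750 were called higher and 889 lower in SU58, and the small list was not tested against these. Of the 10 neuron markers, 6 were higher in both SU58 libraries than in both SU26 libraries and 1 was lower. Taken without regard to direction this is near the background, since 65.7% of all genes tested did not overlap between these lines. The background was not split by direction. Of the markers, nSyb, Syn and futsch were called higher and brp lower. nSyb had 5.41 and 8.33 CPM in SU58, against 3.01 and 3.23 CPM in SU26, and brp had 0.323 and 0.318 CPM in SU58, against 5.78 and 6.14 CPM in SU26. The whole list summed to 30.9 and 32.2 CPM in SU58 and 30.6 and 27.4 CPM in SU26, with VGlut at or near 0. Much of that sum was elav, at 14.95 and 14.1 CPM in SU58 and 17.0 and 14.1 CPM in SU26. Syn had 3.25 and 2.77 CPM in SU58 and 0.562 and 0.144 CPM in SU26, and Syt1 2.04 and 1.72 CPM against 0.76 and 0.432 CPM. Like sums thus do not mean that each marker was level. The part of neuronal RNA in the differences of unc-13 and Cadps was not tested.

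The homeobox factor zfh2 was also higher, with 8.12 and 8.62 CPM in SU58 and 3.8 and 3.54 CPM in SU26 (2.28-fold, adjusted p = 0.00143). Of the exonic length of zfh2, 18.7% is shared with Tdg on the other strand, which had 74.0 to 104.5 CPM in the 12 libraries. As the use of strand is not given, reads of this stretch cannot be assigned to zfh2 or Tdg in any comparison. Smaller rises, of 1.24- to 1.33-fold, were those of the receptor tyrosine kinase Eph, Mitf, the small GTPase Arl4, the eIF4E-binding 4E-T and the ankyrin Ank. Each of these 5 calls was lost in some of the 18 alternative fits, and 6 of the 14 calls in the comparison held in all 18: CG11155, CG31997, CG32017, unc-13, Cadps and zfh2.

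ZI418N differed from SU26 at more members. Of 66, 23 were called, 18 higher and 5 lower in ZI418N, which is 34.8% of the members against 24% of all genes tested. The count was lower without SU26 replicate 2 or without ZI418N replicate 1. Calls over all genes in those fits are not given here. Few of these differences were large: 7.58% of the members and 9.47% of all genes were called with at least a 2-fold difference. Of all 9302 genes tested, 1014 were called higher and 1221 lower in ZI418N. The counts per role list given below are small and were not tested against these.

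The transcription factors zfh2, ci and Mitf were higher in ZI418N. zfh2 had 10.4 and 11.7 CPM in ZI418N and 3.8 and 3.54 CPM in SU26 (3.01-fold, adjusted p = 0.000183). The Hedgehog pathway effector ci had 118.5 CPM in both ZI418N libraries and 71.9 and 67.2 CPM in SU26 (1.70-fold, adjusted p = 0.0021). Mitf had 174.9 and 172 CPM in ZI418N and 110.5 and 118.2 CPM in SU26 (1.52-fold, adjusted p = 0.00203). Both groups were apart for all 3 genes, which was a condition of naming genes from a pair of lines and held for 64.8% of all genes tested. Of 14 tested members of the list, 3 rose. The zinc finger factor dati, named after its values were seen, was called lower at the limit of detection, with 0 and 2 reads in ZI418N libraries and 21 and 17 reads in SU26 libraries.

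Of the cytoskeletal members, 3 of 4 rose in ZI418N, a list too short for a reading by role. Zyx, the zyxin of focal adhesions and Hippo signalling, had 76.0 and 84.3 CPM in ZI418N and 57.3 and 54.1 CPM in SU26 (1.44-fold, adjusted p = 0.00287), and the others were Ank (1.32-fold) and the kinesin Kif3C (1.69-fold), whose calls were lost without SU26 replicate 2, among other settings. Of 15 tested signalling members, 4 rose, the semaphorin receptor PlexB, myo, CaMKII and the kinase Dyrk3, by 1.31- to 1.51-fold. The Dyrk3 call (adjusted p = 0.0495) was lost in 12 of the 18 alternative fits, and its log2 fold change over all 18 ran from 0.31 to 0.94; the CaMKII call was lost in 5 and those of PlexB and myo in 2 each. The GTPase-activating protein RhoGAP102A fell, with 5.08 and 7.17 CPM in ZI418N and 24.3 and 14.6 CPM in SU26 (3.17-fold, adjusted p = 0.00181). The libraries of each line were apart, which was a condition of naming the gene, and those of SU26 differed widely between themselves.

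In the synapse list, 3 of 8 tested members rose in ZI418N, CG11155, Cadps (1.79-fold) and Cals. Cals had 377 and 392 CPM in ZI418N and 275 and 263 CPM in SU26 (1.43-fold, adjusted p = 0.00352). Of 10 neuron markers, 3 were higher and 4 lower in both ZI418N libraries than in both SU26 libraries, again near the 64.8% of all genes tested that did not overlap, and the list summed to 27.0 and 24.98 CPM in ZI418N and 30.6 and 27.4 CPM in SU26. Of 7 tested members of transport and metabolism, 2 rose, anne (1.41-fold) and the zinc transporter Zip102B (1.19-fold, adjusted p = 0.0473), and 3 fell, PMCA and ND-49 among them. The Zip102B call was lost in 14 of the 18 alternative fits, and that of anne in 2. ND-49 had 254 and 269 CPM in ZI418N and 314 and 358 CPM in SU26 (1.28-fold lower, adjusted p = 0.0174), a call lost in 3 of the fits. The remaining calls were CG31999 (1.42-fold higher), CG31997 and 4E-T (1.29-fold higher). Of the 23 calls, 11 held in all 18 alternative fits, among them those of zfh2, ci, Mitf, Zyx, RhoGAP102A, CG11155, Cals, PMCA, CG31999 and CG31997.

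Between ZI418N and SU58, 12 of 66 members were called, 7 higher and 5 lower in ZI418N, or 18.2% against 16.9% of all genes tested, again near the background. The count was lower without SU58 replicate 1, SU58 replicate 2 or ZI418N replicate 1. Calls over all genes in those fits are not given here. Beside CG11155, CG31997 and CG32017, the higher genes were ci (1.60-fold), Cals (1.31-fold), the semaphorin receptor PlexA (1.30-fold) and CG31999 (1.26-fold). The lower genes included unc-13, RhoGAP102A (2.24-fold), PMCA and Eph (1.2-fold). unc-13 had 25.2 and 31.4 CPM in ZI418N, against 65.0 and 58.8 CPM in SU58 (2.19-fold, adjusted p = 0.00316). Here nSyb, Syn and Syt1 of the neuron markers were called lower and brp higher in ZI418N. The calls of CG11155, CG31997, CG32017 and unc-13 held in all 18 alternative fits, while that of ci was lost in 1 and those of Cals, PlexA, CG31999, RhoGAP102A, PMCA and Eph in 4 to 8.

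**Figure D3:**
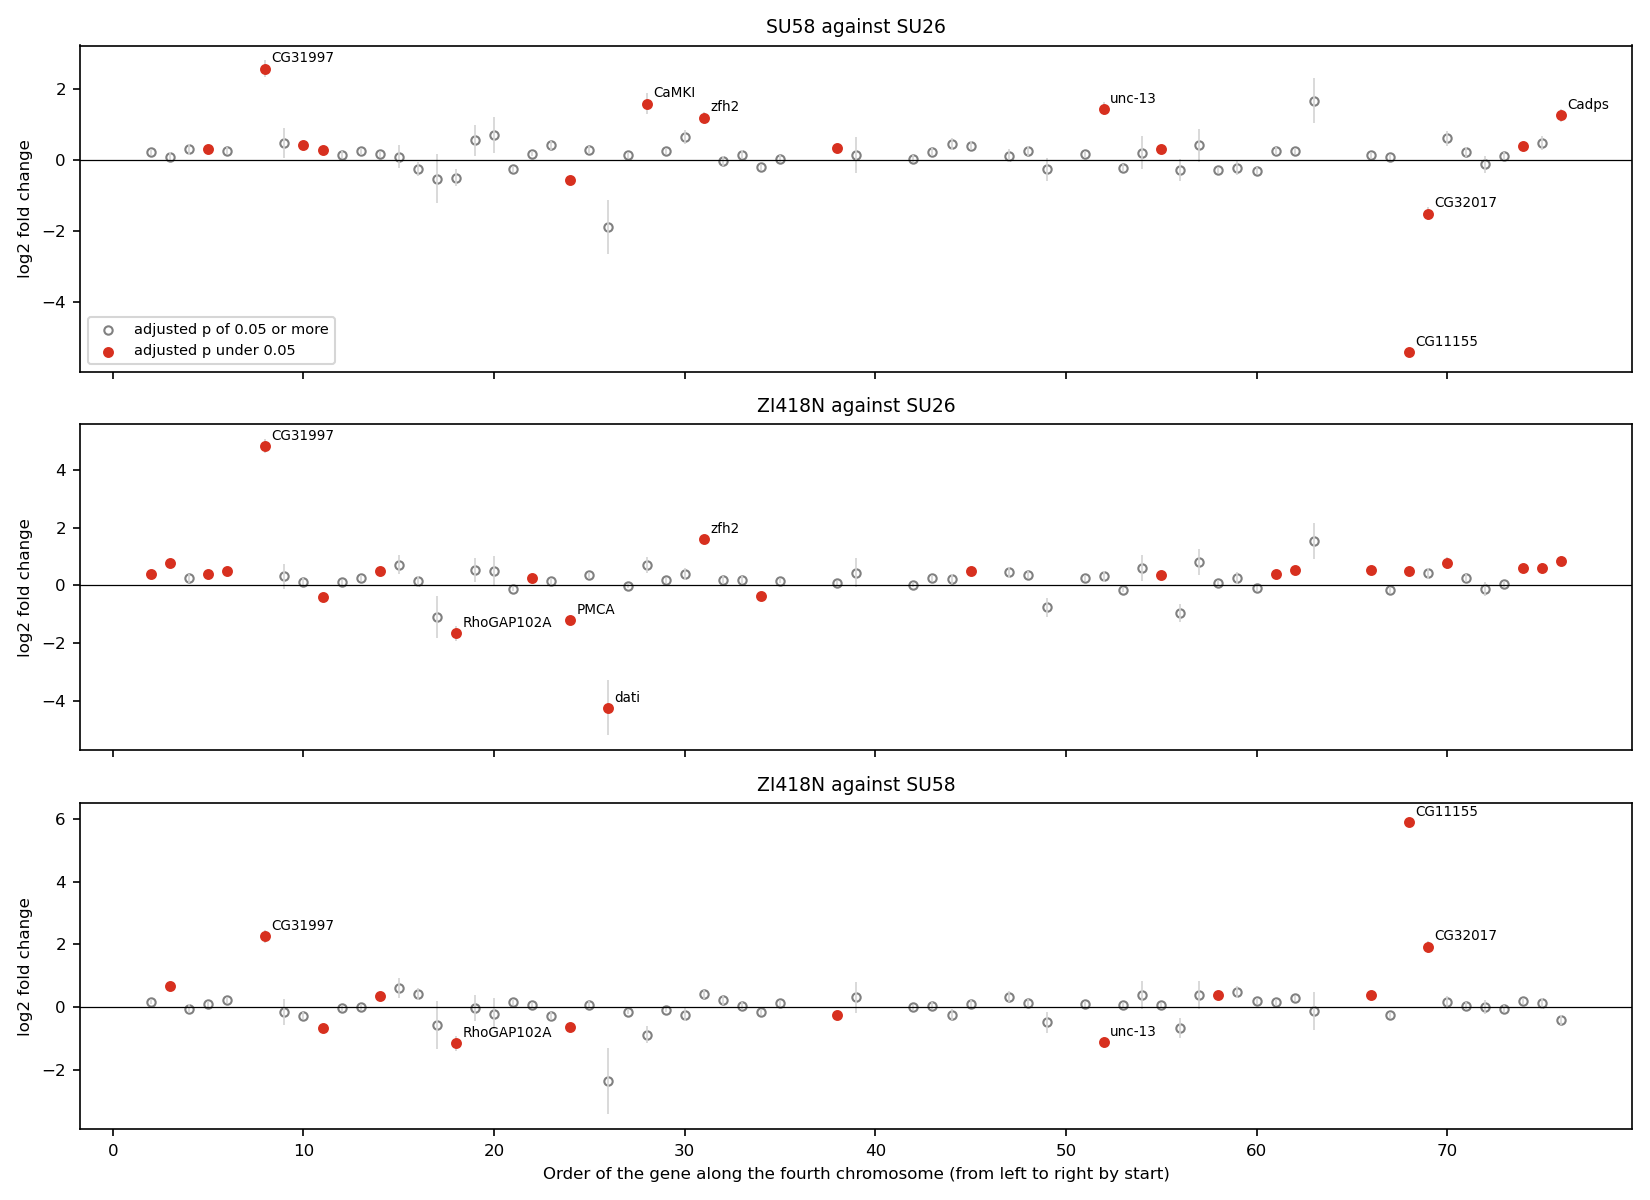
Fitted log2 fold change (vertical axis, with SE bars) of the tested chromosome 4 genes in each pair of lines, by the order of the genes along the chromosome; filled red points have an adjusted p under 0.05 and called genes of at least 2-fold are named. CG11155 and CG32017 are neighbours and lie below 0 in SU58 against SU26 and above 0 in ZI418N against SU58; the fitted value of dati rests on 0 and 2 reads in ZI418N and is no measure of its size.

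Small positive differences against SU26 were common among the members. In SU58 against SU26, 49 of 66 tested members had a positive log2 fold change and the median was 0.21, against a median of 0.01 over all genes tested. In ZI418N against SU26, 52 of 66 were positive and the median was 0.26, against 0.01. These 2 comparisons share the SU26 libraries. In ZI418N against SU58, 38 of 66 were positive, with a median of 0.06 for the members and 0.01 for all genes.

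The member values of 1 SU26 library moved with this tilt. The median deviation of the members from each gene's mean over the 12 libraries was -0.23 (log2) in SU26 replicate 2, -0.18 in SU26xSU58 replicate 2 and -0.09 in SU26 replicate 1, and it lay between 0.00275 and 0.124 in the other libraries. Without SU26 replicate 2 the medians were 0.16 for SU58 against SU26 and 0.18 for ZI418N against SU26. A trend with gene length was present in all 3 pairs of lines. Among genes of other chromosomes the median difference of ZI418N against SU26 was -0.11 for genes up to 1 kb and 0.19 for genes over 8 kb. These medians were -0.06 and 0.05 in SU58 against SU26. In ZI418N against SU58, where the members' median was only 0.06, they were -0.05 and 0.11. The members lay above the genes of other chromosomes of like length in each of the 5 length classes in both comparisons against SU26, with 0.24 against 0.04 in SU58 against SU26 and 0.36 against 0.09 in ZI418N against SU26 for genes of 4 to 8 kb. With the length trend of each library removed, an alternative added after the data were seen, the members' medians were 0.16, 0.20 and 0.03 for SU58 against SU26, ZI418N against SU26 and ZI418N against SU58.

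**Figure D4:**
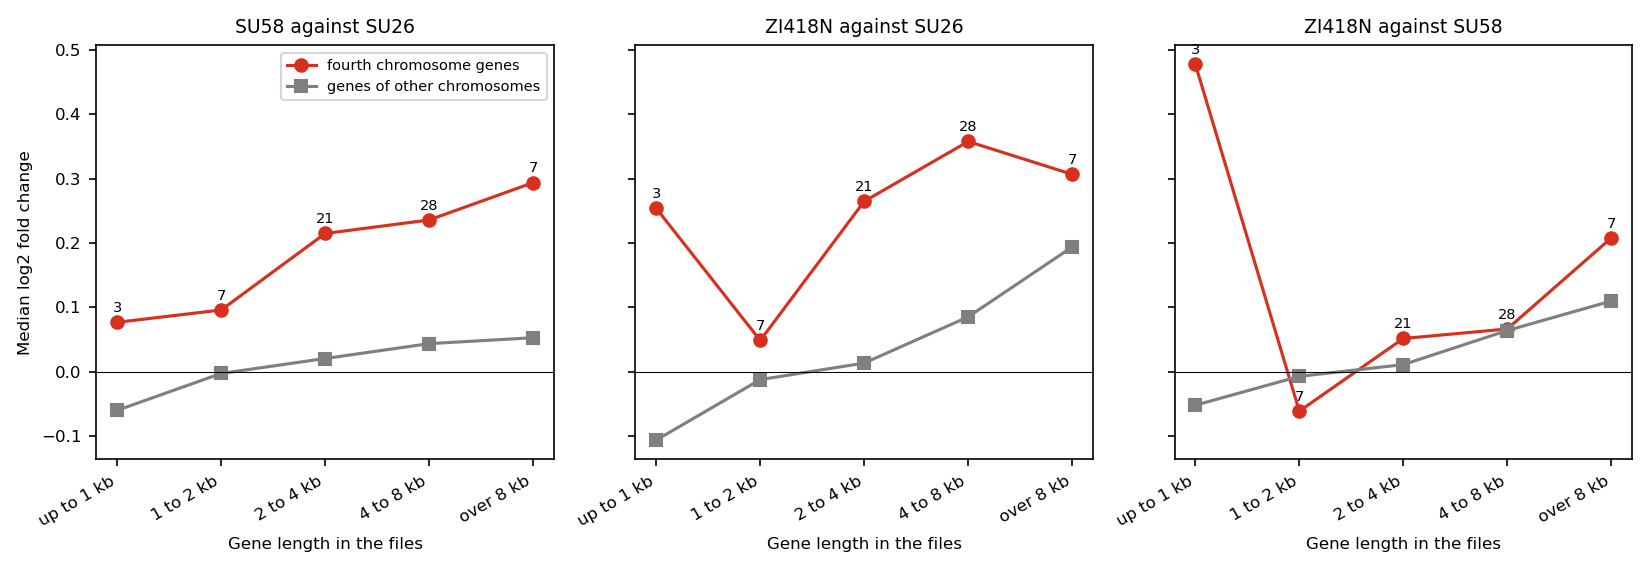
Median log2 fold change by length class of genes for chromosome 4 genes (red circles, with their number) and genes of the other chromosomes (grey squares) in each pair of lines. The red points lie above the grey ones in all classes of both comparisons against SU26, and both sets are higher in long genes than in the shortest class there.

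Listed genes of proteins that act on the chromatin of the chromosome did not pass the test between lines. A list of 14 genes of chromatin on the fourth chromosome, none of them a member, included Pof, the gene of HP1a, egg and its partner wde. All 14 were tested, and edgeR called 0 in each of the 3 pairs of lines, with 0, 0 and 1 at an unadjusted p under 0.05 for SU58 against SU26, ZI418N against SU26 and ZI418N against SU58; DESeq2 also called 0 in these pairs. Between hybrids edgeR also called 0. At an unadjusted p under 0.05 were 6 for SU58xZI418N against SU26xZI418N, 0 for SU58xZI418N against SU26xSU58 and 5 for SU26xZI418N against SU26xSU58. DESeq2 called 1, 0 and 0 there. For SU26xZI418N against the log2 mean of its parents, 8 were at that level, edgeR called 0 and DESeq2 called 4. Pof had 7.66 to 12.4 CPM and the gene of HP1a 30.9 to 42.1 CPM over the 12 libraries. The highest value of both was that of SU26xZI418N replicate 2, the library with the high germ line markers.

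In the hybrids, CG11155 lay close to the arithmetic mean of its parents. SU58xZI418N had 112.2 and 117.9 CPM, SU26xZI418N 200.01 and 185.3 CPM and SU26xSU58 82.4 and 70.7 CPM. The means were 0.997, 0.996 and 0.934 times the parents' mean in CPM, which was 115.4, 193.5 and 81.9 CPM. On the log2 scale of the fit the mid-parent is the geometric mean, which lies far lower where 1 parent is near 0. Against that value SU58xZI418N was called higher by 1.97 ± 0.08 (adjusted p = 1.81e-05) and SU26xSU58 by 1.64 ± 0.08 (adjusted p = 9.93e-05), while SU26xZI418N differed by 0.02 ± 0.08 (adjusted p = 0.924). The 2 hybrids with an SU58 parent were therefore apart from the log2 mid-parent and near the CPM mean at once.

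Few members were called against the log2 mid-parent. The counts were 1 of 66 for SU26xSU58 (background 0.108%), 2 for SU26xZI418N (background 5%) and 1 for SU58xZI418N (background 0.387%). All hybrids set against all lines gave 2, CG11155 and CG31997, both higher on the log2 scale (background 0.849%). In CPM the hybrids were not higher for CG11155, at 0.997 (SU58xZI418N), 0.996 (SU26xZI418N) and 0.934 (SU26xSU58) times the parents' mean. CG31997 had 55.2 and 58.9 CPM in SU58xZI418N, 47.5 and 38.0 CPM in SU26xZI418N and 10.6 and 7.42 CPM in SU26xSU58. These levels were 1.37, 1.2 and 1.06 times the parents' mean in CPM. In SU26xZI418N it was called above the log2 mid-parent by 1.72 ± 0.18 (adjusted p = 0.00331).

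The other call in SU26xZI418N was zfh2, with 4.68 and 3.91 CPM in the hybrid and a parents' mean of 7.36 CPM, a log2 difference of -0.57 ± 0.14 (adjusted p = 0.0492). It was lost in 14 of the 18 alternative fits. RhoGAP102A had 5.80 and 6.57 CPM in SU26xZI418N and a parents' mean of 12.8 CPM, which put the hybrid at the level of ZI418N, and the difference from the log2 mid-parent did not pass (-0.82 ± 0.22, adjusted p = 0.0625). PMCA had 2104 and 1991 CPM in SU26xZI418N, 0.719 times the parents' mean in CPM, without a call (adjusted p = 0.0962).

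Over the 59 expressed members, the level in a hybrid divided by the parents' mean in CPM had a median of 0.998 in SU58xZI418N, 1.02 in SU26xZI418N and 0.962 in SU26xSU58. Within 20% of the parents' mean were 53, 51 and 55 members in these hybrids, or 89.8%, 86.4% and 93.2%, against 89.3%, 65.7% and 88.7% of the expressed genes of other chromosomes. The share of 65.7% belongs to SU26xZI418N, whose replicate 2 held 980 CPM of germ line markers. The expressed members also had a higher median level, 69.7 CPM against 22.1 CPM, and neither point was adjusted for. The lowest and highest ratios in SU26xZI418N were those of apolpp, the fat body lipoprotein, at 0.452 and of the TGF-beta family ligand mav at 2.56, both named after their values were seen. mav had 11.3 CPM in SU26xZI418N replicate 2 and 2.25 to 3.27 CPM in every other library. apolpp had 111.2 and 40.7 CPM in SU58, 47.6 and 91.6 CPM in ZI418N and 30.8 and 17.2 CPM in SU26. The fat body list was highest in the same 2 libraries, at 1070 CPM in SU58 replicate 1 and 1124 CPM in ZI418N replicate 2. That list includes apolpp itself, so part of this match is built in.

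The hybrids that share a parent allow the same differences to be read in other libraries. SU58xZI418N against SU26xZI418N differs by an SU58 or SU26 parent, SU58xZI418N against SU26xSU58 by a ZI418N or SU26 parent, and SU26xZI418N against SU26xSU58 by a ZI418N or SU58 parent. The members called were 1, 3 and 4 of 66, against 2.06%, 2.89% and 4.73% of all genes tested. CG11155 was called in all 3: 1.67-fold lower in SU58xZI418N than in SU26xZI418N (adjusted p = 0.00714), 1.5-fold higher in SU58xZI418N than in SU26xSU58 (adjusted p = 0.0149) and 2.52-fold higher in SU26xZI418N than in SU26xSU58 (adjusted p = 0.000189). The first and second of these calls were lost without either SU58xZI418N library (adjusted p up to 0.0686 and 0.109), and the second also without SU26xSU58 replicate 2. CG31997 was 6.32-fold higher in SU58xZI418N than in SU26xSU58 (adjusted p = 0.000415) and 4.74-fold higher in SU26xZI418N than in SU26xSU58 (adjusted p = 0.00074). The other calls were PMCA, 1.54-fold lower in SU58xZI418N than in SU26xSU58, and RhoGAP102A, 2.30-fold lower, and CG32017, 1.72-fold higher, in SU26xZI418N than in SU26xSU58; the calls of PMCA, RhoGAP102A and CG32017 were each lost in at least 7 of the 18 alternative fits.

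The signs of the differences mostly recurred in the hybrids, for the members as for all genes called between the lines. Of the members called between lines, 12 of 14 had the same sign in SU58xZI418N against SU26xZI418N as in SU58 against SU26, 22 of 23 in SU58xZI418N against SU26xSU58 as in ZI418N against SU26, and 11 of 12 in SU26xZI418N against SU26xSU58 as in ZI418N against SU58. These are 85.7%, 95.7% and 91.7% of the members called. Among all genes called between the lines, the shares with the same sign were 72.4%, 88.9% and 93.1%, so the recurrence was not particular to the members. unc-13, 2.70-fold higher in SU58 than in SU26, had 33.8 and 36.2 CPM in SU58xZI418N and 24.3 and 34.2 CPM in SU26xZI418N, which overlap.

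**Figure D5:**
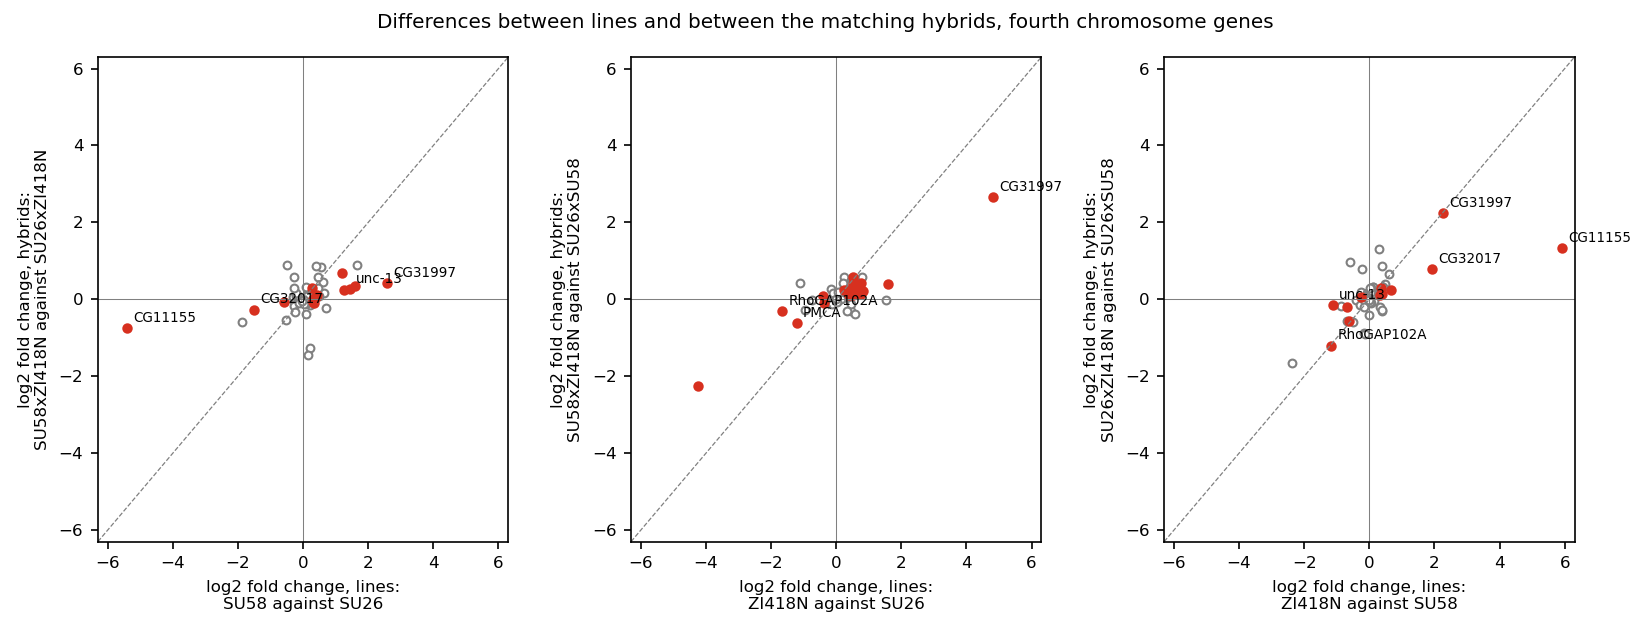
Log2 fold change between hybrids that differ in 1 parent (vertical) against that between the corresponding lines (horizontal) for the 66 tested chromosome 4 genes; filled red points were called between the lines, and the dashed line marks equal values. Most red points have the same sign on both axes and lie nearer to 0 on the hybrid axis, and CG11155 is the gene farthest out between lines where SU58 takes part.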

How the data were processed

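Counts of reads per gene were deposited by the authors in 1 table per library, with a chromosome and a length, per the file headers; the values are whole and not normalized. Not given in the sources used here are the aligner, the counting tool, its use of strand and the genome build. Lengths were taken to be in bases. Coordinates, which exist for 76 members, are those of Ensembl BDGP6; the authors may have used another build.

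Genes were filtered with edgeR's filterByExpr and scaled by TMM, which also scales the CPM. A mean per genotype was fitted to all 12 libraries with edgeR 4.0.16 in R 4.3.3 (6 residual degrees of freedom, median biological coefficient of variation 14.4%) and tested by its quasi-likelihood test at 0.05 after Benjamini-Hochberg adjustment across 9302 genes. SEs were derived from the log2 fold change and the F statistic. The fit was tested on simulated counts. No pair of replicates held copies of the same counts.

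Members, role lists and marker lists were chosen with earlier results of these data known. Genes named are CG11155, called members by lowest adjusted p (up to 10 per pair of lines that do not overlap and average at least 1 CPM, up to 3 per other comparison), the 10 highest per kb and up to 4 per role list by level; other genes were named after their values were seen. Alternatives were DESeq2 1.42.0, its size factors, no filter, a replicate block, libraries left out and removal of the length trend. Sequence motifs were not analysed here. The values of 1 member are not reported here.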

Additional observations from a re-analysis of the deposited data

Results flagged for a closer look

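The deviation of CG11155 from the log2 mid-parent differed between hybrids. It was larger in SU26xSU58 than in SU26xZI418N by 1.62 on the log2 scale (adjusted p = 0.000841, edgeR quasi-likelihood test of the difference), with both SU26xSU58 libraries above the log2 mid-parent. It was larger in SU58xZI418N than in SU26xZI418N by 1.96 (adjusted p = 0.000279). Of 9302 genes, 14 and 4 passed in these differences, and CG11155 was the 1 member in each. In CPM, where the parents' arithmetic mean is the comparison, the same hybrids lay at 0.934 (SU26xSU58), 0.997 (SU58xZI418N) and 0.996 (SU26xZI418N) times that mean.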

How the results depend on the processing

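With 2 libraries per genotype, counts of called members depend on single libraries: leaving out 1 of the 12 gave 6 to 17 calls for SU58 against SU26, 13 to 25 for ZI418N against SU26, 5 to 13 for ZI418N against SU58, 0 to 3 for SU58xZI418N against SU26xZI418N, 1 to 3 for SU58xZI418N against SU26xSU58, 2 to 6 for SU26xZI418N against SU26xSU58, 1 to 4 for SU26xZI418N against its mid-parent, 2 to 4 for the hybrids against the parents, and 1 throughout for the other mid-parent tests; the lone sample is then assumed to vary like the other groups. Without SU58 replicate 1 and SU26xZI418N replicate 2 together, the counts were 7 for SU58 against SU26, 6 for ZI418N against SU58, 0 for SU58xZI418N against SU26xZI418N, 2 for SU26xZI418N against SU26xSU58 and 1 for SU26xZI418N against its mid-parent. DESeq2 called 4 for SU58xZI418N against SU26xZI418N, 7 for SU26xZI418N against SU26xSU58, 6 for SU26xZI418N against its mid-parent and 2 for SU58xZI418N against its mid-parent, where no filter on low counts also gave 2. With the length trend removed, SU58xZI418N against SU26xZI418N gave 2 calls. Whether replicate numbers mark a shared day or batch is not stated, and the samples were treated as unpaired. Over 15 pairs of groups, correlations of same-numbered deviations ran from -0.223 to 0.319, and 4 were above 0.1. These values cannot exclude a shared batch for some groups. With a replicate block, SU26xZI418N against its mid-parent gave 1 call and SU58xZI418N against its mid-parent gave 2. The causes were not tested. Calls over all genes in the alternative fits are not given here, so a change in a count of members is not a result about the chromosome. Of 63 called pairs of gene and comparison, 30 kept their call in all 18 alternatives, CG11155 in SU58 against SU26 between -5.45 and -5.35 (log2). The uncalled difference of CG11155 in SU26xZI418N from its mid-parent lay between -0.0399 and 0.0753 with 1 library left out, and was below 0 without SU26 replicate 2 (-0.00784), ZI418N replicate 1 (-0.0168) or SU26xZI418N replicate 1 (-0.0399). The share of members expressed was 76.6% in every alternative but 1, 77.9% at a mean of at least 0.5 CPM. The members under 1 CPM, at a floor of 3 counts of 0.0692 to 0.0991 CPM, allow no reading of small differences.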
